A study of Drosophila melanogaster with 24 samples.

Results

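E93 (Eip93F) is a DNA-binding transcription factor induced by the steroid hormone ecdysone during metamorphosis. Regulatory DNA that is free of nucleosomes is recovered by FAIRE-seq (formaldehyde-assisted isolation of regulatory elements), whereas ChIP-seq recovers the DNA to which a chosen protein is crosslinked. To ask how binding of E93 relates to open chromatin in the pupal wing, all 8477 E93 ChIP-seq peaks and all 29731 wild-type FAIRE-seq peaks at 24 h after puparium formation (APF) were compared by position, out of 183658 peaks in the 7 lists of the series. No peak was selected on its values. A FAIRE-seq peak is called an open region here, and it is called occupied when an E93 peak overlapped it by at least 1 bp. The FAIRE-seq lists of wild-type wings of wandering third-instar larvae (L3, 3 replicates) and at 44 h APF (3 replicates) were compared too. So was the FAIRE-seq list of E93 mutant wings at 24 h APF (2 replicates). These added lists took no part in calling a region open or occupied.

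FAIRE-seq was performed on wings of 24 h APF females of the strain w1118/y,w, hs-FLP; + ; + (wild type, 3 replicates of at least 40 wings). ChIP-seq was performed with an anti-GFP antibody on at least 700 wings per replicate (2 replicates) of 24 h APF males and females of yw/+; + ; Mi{MIC}Eip93F/+ (E93-GFSTF). These animals carry 1 chromosome with a GFP-tagged Eip93F protein trap next to an untagged copy, so only the tagged protein was precipitated. The chromatin was sheared to between 500 and 2000 bp for FAIRE-seq and to about 200 bp for ChIP-seq. The authors pooled the replicates before calling peaks and deposited 1 list per condition, so the spread between replicates is unknown, no test over samples could be made, and the exact (Clopper-Pearson) 95% binomial intervals given below cover counting error only. A region without an E93 peak is one where none was called, which does not show that E93 was absent. The series holds no ChIP-seq from wings without the tag, and its only control sample is genomic DNA. ChIP-seq signal that does not depend on the tag was therefore not measured. Its part in the overlap with open regions and in the relation of heights was not tested. Positions are those of build dm3 named by the submitters. The gene table at hand is on Release 6, so no region was assigned to a gene and no sequence was read.

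Pileup, the height of a peak, is the number of overlapping extended reads at its summit, scaled by the authors to the depth of a control. Among open regions it ran from 20.84 to 137.22, with a median of 50.95. Among E93 peaks it ran from 23.17 to 119.32, with a median of 37.97. These heights were whole multiples of 0.579 and 0.493, which correspond to 17.5 M and 20.6 M reads if both lists were scaled to the 10135847 control reads. The highest peaks therefore held 237 reads in FAIRE-seq and 242 reads in ChIP-seq. If each position and strand counts once and reads are extended to 125 bp, the length of the shortest peaks, a height cannot pass 250 reads, and the highest peaks of both lists lay close to this limit, where differences in height are compressed. Heights in the 2 lists are not on the same scale and are compared by rank only.

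E93 peaks lay almost entirely in open chromatin, while most open regions had no E93 peak. Of the E93 peaks, 8117 or 95.8% (95.3% to 96.2%) overlapped an open region. Of the open regions, 7655 or 25.7% (25.3% to 26.2%) were occupied. Occupied regions made up 4.36 Mb of the 10.5 Mb of open chromatin, and the E93 peaks themselves covered 2.96 Mb. The relation was mostly one of a single E93 peak to a single region: 7869 E93 peaks overlapped 1 region and 248 overlapped more, and 6990 regions held 1 E93 peak and 665 held more.

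Occupancy rose with accessibility at every step of the list. When open regions were ranked by pileup and divided into 10 deciles, 2.93% (2.35% to 3.60%) of the weakest decile were occupied, against 25.7% of all regions. The share was 5.92% in decile 2, 8.17% in decile 3, 11.8% in decile 4 and 15.5% in decile 5. It went on to 24.4% in decile 6, 31.4% in decile 7, 39.6% in decile 8 and 48.9% in decile 9. In the strongest decile, with pileups of 103.64 and above, 2046 of 2973 regions or 68.8% (67.1% to 70.5%) were occupied. Intervals of neighbouring deciles did not overlap at any of these steps. The upper 5 deciles held 6336 of the 7655 occupied regions (82.8%). Inside the strongest decile the share rose further, to 77.2% (74.5% to 79.8%) of the 1000 highest regions. It was 79.4% (75.6% to 82.9%) of the highest 500 and 78 of the highest 100, within counting error of that.

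**Figure D1:**
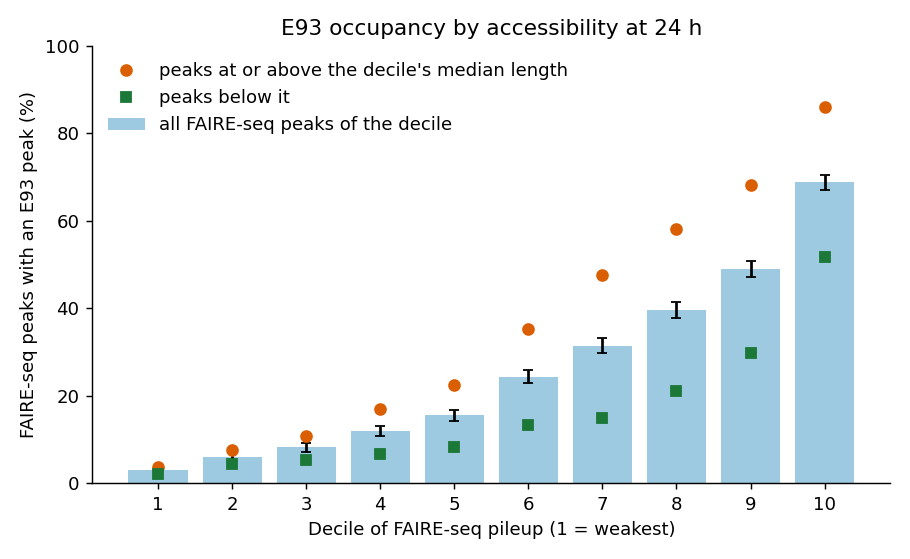
Share of open regions (FAIRE-seq peaks, %) with an E93 peak in each decile of FAIRE-seq pileup, with exact 95% intervals (bars), and the same share for regions at or above the median length of their decile (circles) and below it (squares). The share rises from 2.93% to 68.8%, and in all 10 deciles the longer regions are occupied more often.

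Occupied regions were also longer, within each decile of height too. Their median length was 504 bp (quartiles 348 and 713), against 229 bp (168 and 336) for regions without E93. Within each of the 10 deciles the occupied regions had the larger median length, from 189 against 165 bp in the weakest to 718.5 against 454 bp in the strongest. In decile 6, 35.3% of the regions at or above the median length were occupied and 13.4% of the shorter ones. In the strongest decile these shares were 85.9% and 51.7%. Over the 10 deciles the ratio of both shares lay between 1.66 and 3.18. Ranked by length alone, 3.36% (2.74% to 4.07%) of the shortest decile (125 to 145 bp) and 76.6% of the longest (662 to 3425 bp) were occupied. Length and height rose together over all open regions (rho = 0.68, n = 29731 peaks of 1 list), so the 2 orders are not independent.

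A longer region offers more bases for an overlap, so occupancy was also measured per length and in a window of fixed size. The density of E93 peaks that overlapped open regions by at least 1 bp was 159 per Mb in the weakest decile, 540 per Mb in decile 5 and 1154 per Mb in the strongest. E93 peaks that reach in from outside count too, which raises the density of short regions, so it is not fully corrected for length. The share of regions with an overlapping E93 peak whose summit, its highest point, lay within 100 bp of their own was 1.95% in the weakest decile, 9.72% in decile 5 and 28.9% (27.3% to 30.6%) in decile 9. In decile 10 it was 30.1% (28.5% to 31.8%), so with a fixed window the last step was within counting error. The strongest regions were more often occupied away from their summit, and 12.1% of them held more than 1 E93 peak, against 0.235% in decile 5. Along the deciles of length the upper rise was also smaller by these measures. From length decile 8 (395 to 495 bp) to the longest, the occupied share rose from 40.3% to 76.6%. The density, which favours short regions as said above, rose only from 933 to 1049 per Mb, and the share with summits within 100 bp from 24.8% to 30.3%.

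Read from the side of the ChIP-seq list, weaker E93 peaks lay more often outside open regions. In the weakest decile of E93 peaks by ChIP-seq pileup 87.3% (84.8% to 89.4%) overlapped an open region, against 95.8% of all. In the strongest decile 846 of 847 did (99.9%). The matched open regions rose in height along the list, from a median FAIRE-seq pileup of 64.85 (quartiles 42.85 and 91.48) in the weakest decile of E93 peaks to 107.69 (92.8 and 115.80) in the strongest. Of the matched peaks in the weakest decile, 14.2% lay in the strongest decile of open regions, and of those in the strongest decile 59.6% did. E93 peaks grew longer along the same order, from a median of 169 bp to 602 bp.

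Heights of both assays rose together. Over the 8117 E93 peaks in an open region, each paired with the overlapping region of the nearest summit, Spearman's rho between ChIP-seq and FAIRE-seq pileup was 0.37. These pairs are peaks of 2 pooled lists that fall in 7443 regions, so they are not independent of each other. By arm rho was 0.39 on 2L (n = 1426), 0.37 on 2R (n = 1721), 0.40 on 3L (n = 1888), 0.35 on 3R (n = 2034) and 0.31 on X (n = 1039). Within single deciles of FAIRE-seq pileup, where the range of 1 of the 2 measures is narrowed by construction, it lay between -0.03 and 0.18. Among pairs that overlapped by at least 50% of both peaks it was 0.54. Other choices of peaks gave 0.39 (summits at most 250 bp apart), 0.23 (stricter peaks in both lists) and 0.21 (the strongest 25% of E93 peaks). A 50% overlap of both peaks keeps pairs of similar length by construction. Length rose with pileup among E93 peaks (rho = 0.70) and among the matched open regions (rho = 0.62). The part of this in the value of 0.54 was not tested. The strongest E93 peak of an occupied region had a median pileup of 31.06 in the weakest decile of regions, 35.01 in decile 5, 42.40 in decile 9 and 50.29 (quartiles 37.97 and 67.06) in the strongest. Among the 87 occupied regions of the weakest decile no E93 peak passed a pileup of 49.31, and none reached the strongest decile of E93 peaks.

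**Figure D2:**
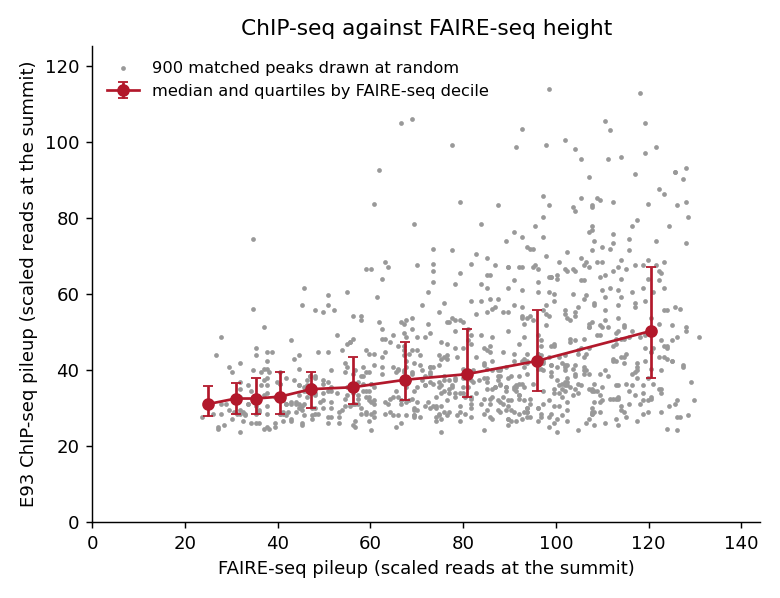
ChIP-seq pileup (vertical axis, scaled reads) against FAIRE-seq pileup (horizontal axis, scaled reads) for 900 of the matched peaks drawn at random (grey), with the median and quartiles of the highest E93 peak per occupied region in each FAIRE-seq decile (red, placed at the middle of the decile's range). The medians rise from 31.06 to 50.29, and the quartiles of neighbouring deciles overlap.

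The highest E93 peaks lay in strong open regions without following their order. All 100 highest E93 peaks overlapped an open region. When each was scored by the strongest region it overlapped, 77 lay in the strongest decile and none in the lower 5 deciles. The median rank of these regions was 1384 of 29731, and 4 were among the 100 highest. Ranks at the top of the FAIRE-seq list differ little in height, since 1070 open regions held at least 200 reads. Conversely, 78 of the 100 highest open regions were occupied, and the median rank of their highest E93 peak was 1651 of 8477, with 26 in the strongest decile of E93 peaks and 12 below the middle of that list.

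The highest E93 peak, chr2L:7422385-7422846, had a ChIP-seq pileup of 119.32 and lay in an open region of 484 bp with a FAIRE-seq pileup of 119.85, which ranked 552. The next, chr2R:2434371-2435436, with 117.35, covered the whole of an open region of 1049 bp that ranked 3031 with a pileup of 103.06. The peak at chr3L:5626062-5626838, with 115.87, joined 2 open regions, a short one of 147 bp with a pileup of 36.48 and one of 1575 bp that ranked 258 with 123.33. The strongest open region under each of these first E93 peaks thus lay high in the list. On 3R, chr3R:26096475-26097438 had a ChIP-seq pileup of 115.38 in an open region of 1433 bp with rank 2130, and its summit lay 713 bp from that of the region. The peak at chr2L:428931-430658, also with 115.38, was 1728 bp long and belonged to a group of 13 neighbouring E93 peaks. The highest peak of X, chrX:18432893-18434379, ranked 7 with 113.90, in an open region of rank 3961. That of chromosome 4, chr4:853579-853977, ranked 114 with 96.64.

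The most accessible region of the list, chr2R:3132461-3134760 with a FAIRE-seq pileup of 137.22, held 1 E93 peak with a ChIP-seq pileup of 62.13 and rank 1158, whose summit lay 965 bp away. The second, chr3R:25666632-25667729 with 136.64, held 2 E93 peaks, the higher with 41.91 and rank 3405. The third, chr3L:7353520-7354719 with 135.49, held none. The region chr2L:11210251-11210749, with a FAIRE-seq pileup of 134.33, held an E93 peak of 125 bp with a ChIP-seq pileup of 31.56 and rank 6341. In the fifth, chr3L:11372451-11373808 with 133.17, the higher of 2 E93 peaks reached 56.70 and rank 1527. None of the 5 most accessible regions therefore held an E93 peak of the strongest decile, whose pileups began at 67.55.

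The region with the most E93 peaks was chr2L:607200-610112, where 5 lay side by side in 2913 bp of open chromatin, the highest with a ChIP-seq pileup of 48.32. The region chr3L:3393668-3396242 of 2575 bp held 4, the highest with 105.52 and rank 33. The region chr3R:10293690-10295224 also held 4, none above 33.04. Regions with several E93 peaks were long, with a median of 476 bp for regions with 1, 956 bp for the 665 regions with 2 or more and 1574 bp for the 46 with 3 or more. As a peak caller may divide 1 broad peak or keep it whole, the number of E93 peaks in a region is not a number of binding sites.

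In the strongest decile 927 of 2973 open regions (31.2%, 29.5% to 32.9%) had no E93 peak. They differed little in height from the occupied regions of that decile, with a median FAIRE-seq pileup of 111.17 against 113.48, and more in length, with 454 against 718.5 bp. The nearest E93 summit was a median of 4.78 kb away (quartiles 1.47 and 12.6), within 1 kb for 160 regions and within 5 kb for 474, and it was more than 50 kb away for 34. By arm, they were 151 of 522 regions of this decile on 2L, 162 of 587 on 2R, 167 of 626 on 3L and 203 of 698 on 3R. On X they were 240 of 531 and on chromosome 4 they were 4 of 9.

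The highest of them was the region at chr3L:7353520-7354719 named above, 1200 bp long, whose nearest E93 summit lay 16.1 kb away. It was followed by chr3L:10356471-10357258 with a FAIRE-seq pileup of 132.59, 4.75 kb from an E93 peak, and chr2L:9947302-9947780, also with 132.59, only 0.724 kb from one. The region chr2L:19865605-19866033 had a pileup of 131.43 and lay 29.6 kb from the nearest E93 summit. The region chr2R:6319901-6320302 had 130.27 and lay 1.86 kb from it. All 5 overlapped a FAIRE-seq peak at L3, at 44 h APF and in E93 mutant wings at 24 h APF.

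E93 summits lay close to the most open point of a region but seldom on it. The distance between the 2 summits was a median of 90 bp (quartiles 36 and 185). It was at most 10 bp for 8.49% (7.89% to 9.12%) of the matched E93 peaks, at most 50 bp for 32.3%, at most 100 bp for 53.8% and at most 250 bp for 83.4%. The E93 summit lay inside the open region for 96.9% of the peaks, and the summit of the region inside the E93 peak for 72.9%. E93 peaks were shorter than their open region in 85.5% of the pairs, and 62.8% lay wholly inside it.

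The distance grew with the length of the region. In the quartile of matched peaks with the shortest regions (125 to 369 bp) the median distance was 46 bp, in the next (369 to 535 bp) 78 bp, then 117 bp (536 to 773 bp) and 210 bp in the longest (773 to 3425 bp). Where 1 E93 peak met 1 region (n = 6543) the median was 78 bp. In these pairs 71.9% (70.8% to 73.0%) of the E93 summits and 81.8% (80.9% to 82.7%) of the FAIRE-seq summits fell in the central 50% of the region. By decile of ChIP-seq pileup the median distance was 99 bp in the weakest, between 82 and 94.5 bp in deciles 2 to 9 and 109 bp in the strongest, whose open regions were also longer (a median of 731.5 bp against 447 bp in the weakest). Fragments were longer in FAIRE-seq than in ChIP-seq, and the part of this in the distances was not tested.

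**Figure D3:**
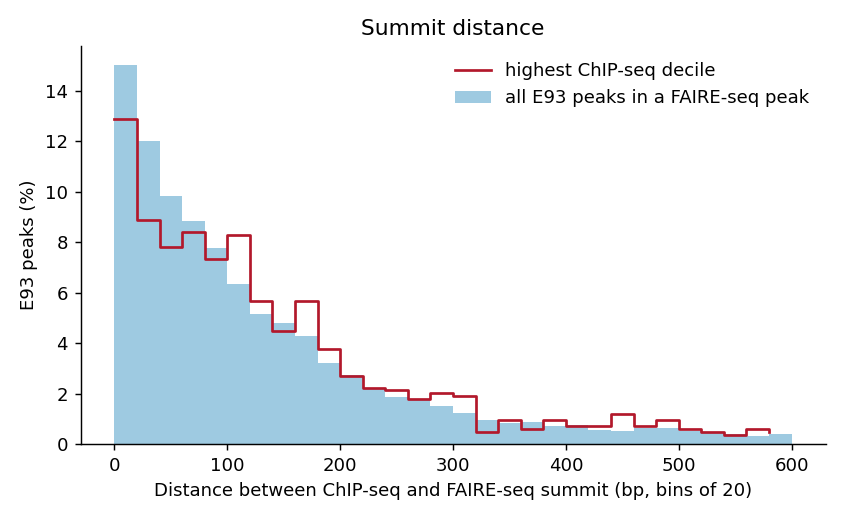
Distance between the ChIP-seq summit and the FAIRE-seq summit (bp, bins of 20 bp up to 600 bp) for all 8117 E93 peaks in an open region (bars) and for the strongest decile of E93 peaks (line), as % of each set. Both fall off from the first bin, and 83.4% of all pairs are at most 250 bp apart.

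E93 peaks lay closer together over a few kb than equally many of the strongest open regions. The next E93 summit was a median of 0.989 kb away, and 83.3% (82.5% to 84.1%) of the E93 peaks had another within 5 kb. Open regions as a whole lie denser, with 94.8% within 5 kb of another, but among the same number of the strongest open regions 73.5% (72.5% to 74.4%) were. The difference was one of short range, as within 20 kb the shares were 95.4% (94.9% to 95.8%) of E93 peaks and 96.2% (95.8% to 96.6%) of these strongest open regions. To set aside E93 peaks that share a region, occupied regions were also compared with as many of the strongest regions, and 80.9% against 70.4% (69.4% to 71.4%) had another of their own list within 5 kb. Strong E93 peaks were grouped most, with 91.4% (89.3% to 93.2%) of the strongest decile within 5 kb of another E93 peak, against 81.4% (78.6% to 83.9%) of the weakest.

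Occupancy was shared between neighbouring open regions. Where the nearest open region was occupied 46.4% of 8134 regions were occupied themselves, and where it was not 18.0% of 21597 were, against 25.7% of all. The same held within every decile of FAIRE-seq pileup, with 8.06% against 1.83% in the weakest, 28.7% against 10.9% in decile 5 and 85.7% against 56.8% in the strongest. For neighbours within 1 kb the shares were 53.2% and 19.9%, and for neighbours from 1 to 5 kb away 35.5% and 17.0%. For neighbours over 5 kb away they were 9.5% of 200 regions and 5.11% of 1350. An E93 peak that overlaps 2 adjacent regions adds to these differences, which holds for the 248 E93 peaks counted above. The length of the regions, the height of the neighbour and the arm were not held fixed, and their part was not tested.

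Linking E93 summits with gaps of at most 5 kb gave 3175 groups, of which 1418 were single peaks, 491 held 5 or more peaks and 84 held 10 or more. The groups of 10 or more contained 1077 E93 peaks, or 12.7%. Their ChIP-seq pileup had a median of 40.43 (quartiles 32.54 and 56.21), against 35.99 (31.06 and 44.75) for single peaks, and their open regions were longer, with a median of 601 bp against 471 bp, at a similar FAIRE-seq pileup of 89.17 against 84.53.

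The largest groups were 2 of 23 peaks on 3R. In the first, chr3R:12044553-12080072, ChIP-seq pileups ran from 28.11 to 103.05 over 35.5 kb, and 22 of its 30 open regions (73.3%) were occupied. In the second, chr3R:27523722-27551522, they ran from 25.64 to 82.84, and 18 of 26 open regions were occupied. The third group, chr2L:2161307-2203620, held 22 peaks with the highest median of the 3, 61.64, and 18 of its 30 open regions were occupied. All E93 peaks of these 3 groups overlapped an open region. The groups were chosen for their E93 peaks, so these shares describe them and are not compared with the 25.7% of all regions.

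**Figure D4:**
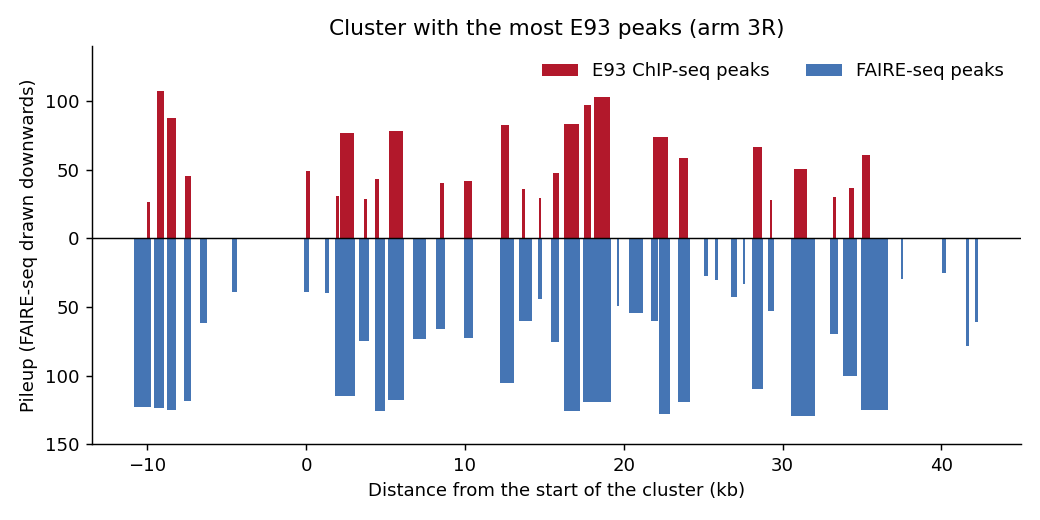
Peaks in and up to 10 kb around the group with the most E93 peaks, on arm 3R. E93 ChIP-seq peaks are drawn upwards and FAIRE-seq peaks downwards, with their pileup as height (vertical axis) and their extent as width, against the distance from the start of the group in kb (horizontal axis). The 23 E93 peaks of the group each stand over an open region, and 22 of the 30 open regions within it are occupied.

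X was occupied less often than each of the 4 large autosomal arms, which differed among themselves by less, with 3L above 2L and 3R, and 2R above 2L. The share of open regions with an E93 peak was 25.9% (24.7% to 27.1%) on 2L, 28.3% (27.2% to 29.5%) on 2R, 29.2% (28.1% to 30.4%) on 3L and 26.3% (25.2% to 27.3%) on 3R. On X it was 18.4% (17.4% to 19.5%), or 972 of 5272 regions, against 27.4% (26.9% to 28.0%) on the 4 arms together. X held 17.7% of the open regions and 12.7% of the E93 peaks. Its regions were not weaker, with a median FAIRE-seq pileup of 53.85 against 50.37, nor much shorter, with 267 against 274 bp. Had X regions been occupied as autosomal regions of the same decile of pileup and of length were, 27.1% would have been. By the same measure the shares would have been 26.6% on 2L, 28.4% on 2R, 28.0% on 3L and 26.7% on 3R. The part of height and length in the order of these 4 arms was not tested.

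The share was lower on X in all 10 deciles of FAIRE-seq pileup, with intervals apart in all 10. In the weakest it was 1.09% (0.355% to 2.52%) against 3.23% (2.58% to 4.00%), in decile 6 13.7% (10.8% to 16.9%) against 26.9% (25.2% to 28.7%), and in the strongest 54.8% (50.5% to 59.1%) against 71.9% (70.1% to 73.7%). The ratio of both shares ran from 0.337 in the weakest decile to 0.762 in the strongest. The E93 peaks that were called on X were not lower than elsewhere, with a median ChIP-seq pileup of 38.95 against 37.97. Only peaks that passed the calling threshold enter these medians. ChIP-seq used wings of males, which have a single X, and of females, whereas FAIRE-seq used wings of females and the control DNA came from adult females. Fewer copies of X in the ChIP-seq sample and less binding of E93 on X cannot be told apart. The control also appears to lie on a different release from the peaks, as described below. The part of this in the X share was not tested.

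**Figure D5:**
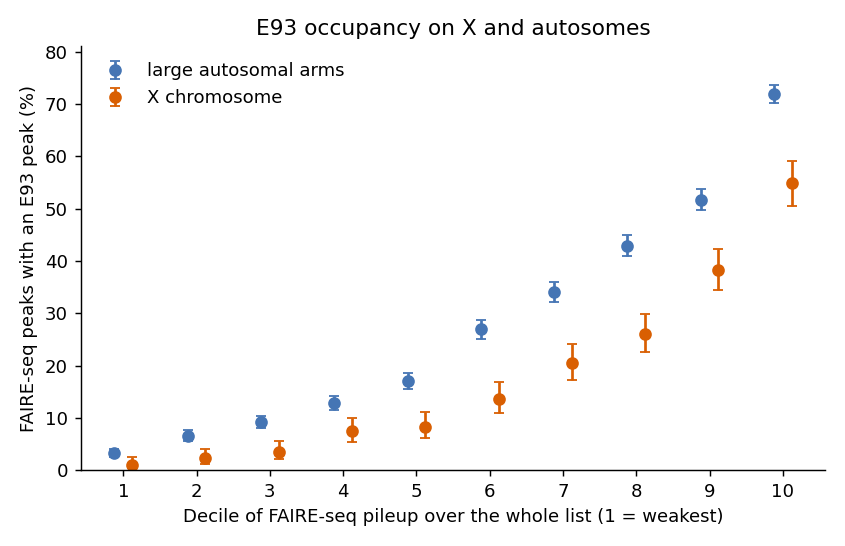
Share of open regions (FAIRE-seq peaks, %) with an E93 peak on the large autosomal arms (blue) and on X (orange) in each decile of FAIRE-seq pileup, with exact 95% intervals. The X share is the lower in all 10 deciles, with 54.8% against 71.9% in the strongest.

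Chromosome 4, which is small and largely heterochromatic, had 9 E93 peaks, all in open regions, and 9 of its 113 regions were occupied (7.96%, 3.71% to 14.6%). Its regions were as high as elsewhere, with a median FAIRE-seq pileup of 52.11, but shorter, with a median of 190 bp. Autosomal regions of the same deciles of pileup and length were occupied in 19.2% of cases. The 9 E93 peaks ranged in ChIP-seq pileup from 35.99 to 96.64, with 1 in the strongest decile.

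Lists that played no part in the match showed how often occupied regions were open at other stages and in E93 mutant wings. At L3 70.8% of all open regions overlapped a FAIRE-seq peak, at 44 h APF 69.1% did, and in E93 mutant wings (E93-4/Df(3R)93FX2) at 24 h APF 65.4% did. At 44 h APF occupied and other regions changed order along the list. In the weakest decile 50.6% of the occupied regions were found against 39.8% of the others, but in decile 8 the shares were 80.1% and 90.4%, and in the strongest 92.1% (90.9% to 93.3%) and 96.5% (95.2% to 97.6%). With each of the upper 5 deciles divided at its median length, occupied regions were found less often at 44 h APF in all 10 parts, with differences (occupied minus other) from -14.4 to -2.51 percentage points. At L3 occupied regions were found more often in 8 of 10 deciles, with 68.5% against 57.4% in decile 4 and, the other way, 95.7% against 98.1% in the strongest. With all deciles divided at the median length, they were found more often at L3 in 13 of 20 parts, but in 4 of the 10 parts of the upper 5 deciles.

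In E93 mutant wings at 24 h APF occupied regions were found more often in 9 of 10 deciles, and in 17 of 20 parts when each decile was divided at its median length (7 of 10 in the upper 5 deciles). The shares were 64.4% against 35.3% in the weakest decile, 75.9% against 52.1% in decile 5 and 90.8% against 83.0% in decile 8. In the strongest both were close to 100%, with 99.3% of the 2046 occupied regions and 99.7% of the 927 others. Longer regions meet any list more readily, and occupied regions were longer in every decile, so a share within a decile still holds a difference in length. Of the E93 peaks themselves, 86.2% overlapped a peak of the mutant, 80.7% one at L3 and 75.9% one at 44 h APF. These lists differ in length, in replicates and in strain, so no order is read from these shares.

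The 360 E93 peaks outside open regions (4.25%, 3.83% to 4.70%) were low and short, with a median ChIP-seq pileup of 30.57 and a length of 176 bp, and 108 of them belonged to the weakest decile of E93 peaks. Their nearest FAIRE-seq summit was a median of 0.701 kb away. The highest, chr2L:8985145-8985420, had a ChIP-seq pileup of 69.52 and lay 0.308 kb from the summit of an open region. The next, chr2R:5920226-5920468 with 65.09, was isolated, with the nearest FAIRE-seq summit 6.73 kb away and no overlapping peak at L3, at 44 h APF or in the mutant at 24 h APF. The third, chr3L:19085672-19086019 with 58.68, overlapped a peak in each of these 3 lists.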

How the data were processed

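FAIRE-seq (3 wild-type replicates) and anti-GFP ChIP-seq (2 E93-GFSTF replicates) of 24 h APF wings were compared through peak lists that the authors made from pooled replicates. The submitters' processing notes name Bowtie2 2.2.8, Picard 2.2.4, SAMtools 1.3.1, MACS2 and build dm3, without settings. Pileup in the deposited lists is a coverage signal at each summit. Fold enrichment, a ratio to local background computed by the authors, and their deposited −log10 q served only in alternatives. Both may rest on the deposited control reads. Those reads reach 25286766 on 2R, past the last peak at 21115206, so that they and the peaks appear to lie on different releases. The lists hold only peaks with a −log10 q of at least 1.31 (FAIRE-seq) and 1.33 (ChIP-seq), so which peaks were called, on X and chromosome 4 too, may also rest on that control, and its part in the results was not tested. The deposited −log10 p was used to break ties in rank. Reads behind the lists were estimated as the 10135847 control reads divided by the step of the pileup.

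Open regions were divided into deciles by FAIRE-seq pileup. The regions named are the 5 highest of each list, the 5 highest open regions without E93, the 3 open regions and 3 groups with the most E93 peaks, the 3 highest E93 peaks outside open regions and the leading E93 peak of each arm. The members and these rules were chosen with earlier results of the same data known. Alternatives were stricter peaks (−log10 q of 10), a 50% reciprocal overlap, summits within 250 bp, other measures of strength, arm 2L alone, the strongest 25% of E93 peaks, and gaps of 2 or 10 kb. A threshold on the ChIP-seq list alone and a match to the strongest region were added after seeing the data. Overlap, decile and gap code was checked on simulated peaks. Computations ran in Python 3.11.15 (pandas 2.3.3, numpy 2.4.6, scipy 1.17.1).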

Additional observations from a re-analysis of the deposited data

How the results depend on the processing

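No paired analysis was possible because the authors pooled all replicates of a condition before calling peaks, which also kept any replicate from being left out. Of 53 alternative values, 24 stayed within the exact 95% interval of the share in the report (0.1 for the rank correlation, 1.5 times for lengths and distances) and 29 did not. A 50% reciprocal overlap lowers the matched shares by construction, and fewer E93 peaks alone lower the shares of open regions. The cause of other shifts, some of them upward, was not tested. Occupancy rose at all 9 steps between deciles, occupied regions were longer and X was less occupied with stricter peaks in both lists, with reciprocal overlap and with near summits alike. E93 binding below the threshold of the ChIP-seq list could not be seen here, as only called peaks were compared. With a −log10 q of at least 10 in both lists, 97.2% of E93 peaks lay in an open region and 16.0% of open regions were occupied, with 46.3% in the highest and 1.84% in the lowest decile. The rank correlation of both pileups was 0.23, 65.3% of E93 peaks had a neighbour within 5 kb, and 11.1% of X regions were occupied. With that threshold in the ChIP-seq list only, chosen after seeing the data, 10.1% of open regions were occupied, 41.9% in the highest and 0.303% in the lowest decile. With a 50% reciprocal overlap, 54.9% of E93 peaks were matched, and 15.7% of open regions, with 40.7% in the highest decile, 1.78% in the lowest, 9.81% on X and 1.77% on chromosome 4, while the rank correlation was 0.54. With summits at most 250 bp apart, 80.2% of E93 peaks were matched, and 22.8% of open regions, with 55.9% in the highest decile and 16.3% on X. With the strongest 25% of E93 peaks, 99.7% lay in an open region, 7.29% of open regions were occupied and the rank correlation was 0.21. By fold enrichment 3.60% of the lowest decile were occupied. On arm 2L 71.1% of the highest decile were occupied and 80.8% of E93 peaks had a neighbour within 5 kb. Of all E93 peaks, 69.6% had one within 2 kb and 90.1% within 10 kb.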
